A study of Mus musculus with 6 samples.

Results

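The TRIM ubiquitin ligases are described here in C2C12 mouse myoblasts that had been arrested in suspension. The genes were taken by name: those with a Trim number as the only symbol of a probe set, leaving out Trim28, Trim63 and Trim72. They came to 55 genes of 18193 measured, with 107 of the 34945 probe sets that carry exactly 1 symbol. C2C12 is an established line of mouse myoblasts, the precursor cells of muscle fibres. Control cells were a stable pool with a GFP shRNA, knockdown cells a pool with an shRNA to PRDM2, a chromatin protein of the PRDM family, and each pool gave 3 arrays. All of the cells had been grown with 20% fetal calf serum and then held for 48 hours in methylcellulose suspension medium with the same serum, which brings C2C12 cells to G0, the resting state. Samples within a pool are labelled as biological replicates with no word on how the cultures were separated, so the p-values measure the spread between these samples.

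TRIM proteins share a tripartite start, made of a RING finger, 1 or more B-boxes and a coiled coil. The RING finger binds an E2 enzyme loaded with ubiquitin, and the coiled coil pairs the ligases into dimers. The part after the coiled coil differs between members, binds the substrate and is used to sort the family into classes. A large class ends in a PRY-SPRY domain and holds many genes that interferon induces, while a small class, the MuRF proteins, sits on the sarcomere of striated muscle.

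Median intensity, the brightness of a probe set on the scale the authors deposited, was 10.6 to 12.1 on the 6 arrays. Control array 3 stood apart in RNA quality, with a Gapdh ratio of the 5' to the 3' control probe set of 0.0992 against 0.704 to 1.14 on the other arrays. The Dap spike, a transcript added during labelling, read 39.9 and 38.8 on arrays 3 of the control and knockdown and 126 to 254 on the other 4. For the genes given array by array below, the difference is therefore also given over arrays 1 and 2 alone and between the arrays 3. Of all 18193 genes 2.96% rose and 2.19% fell in the knockdown by the limma test given below. Myoblast markers were present, with 8 of 8 genes at a mean intensity of 16 or more. Of these Vcam1 (2.36), Cdh2 (1.02) and Itga7 (0.63) rose, Myf5 (-1.29) fell and 4 did not pass. Of 16 myotube markers 14 rose in the knockdown, led by Myh3 (log2 difference 4.92), Tnnc2 (4.61), Acta1 (4.51) and Myl1 (4.47), genes of the contractile apparatus, with a median of 3.80 over the list and summed intensities of 391 to 780 on the control and 11342 to 13352 on the knockdown arrays. The part of this shift in the results below was not tested, and since the RNA is of whole cultures, fewer cells of a type and less RNA per cell cannot be told apart. Prdm2 itself did not pass the test, with log2 differences of -0.51, 0.10 and -0.75 at its 3 probe sets. The probe set at 0.10 was dim, with a mean intensity of 7.18 over the 6 arrays. Those at -0.51 and -0.75 had means of 57.5 and 55.2, and their groups overlapped.

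None of the 55 TRIM genes passed the limma test at a Benjamini-Hochberg adjusted p under 0.05, whereas 5.16% of all 18193 genes did, 2.96% higher and 2.19% lower. At an unadjusted p under 0.05 there were 9 TRIM genes, 2 with a higher and 7 with a lower mean in the knockdown, which is 16.4% against 15.8% of all genes. Of the 107 probe sets 0 passed, against 3.1% of all probe sets (1.81% higher and 1.29% lower), and 13, or 12.1%, had an unadjusted p under 0.05, against 12.8%. The log2 differences, knockdown minus control on log2(intensity + 16), ran from -0.56 for Trim45 to 0.61 for Trim54. No TRIM gene reached a difference of 1, which is 2-fold on that scale, and 3.2% of all genes did. Changes of dim genes are understated by the added 16. The median difference was -0.0083 for the TRIM genes and -0.0040 for all genes, with 26 above and 29 below 0.

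The mean intensity over the 6 arrays was 16 or more for 28 of the 55 genes, or 50.9%, against 58.0% of all genes. Among these brighter genes the median size of the log2 difference was 0.18 for TRIM genes and 0.22 for all 10553. None of the 28 passed, where 7.91% of all brighter genes did (4.48% higher and 3.43% lower), and 7 had an unadjusted p under 0.05, or 25% against 22.9%. The 95% interval of the difference lay within 2-fold in both directions for 26 of the 28, all but Trim45 and Trim54, and for 80.5% of all brighter genes. For those 26 genes, each taken alone, the representing probe set thus bounds the change at less than 2-fold on the scale with the offset. The bound does not hold for every probe set. Of 48 bright TRIM probe sets 44 had such an interval, and other bright probe sets of Trim33 (-0.20 to 1.03) and Trim35 (-0.97 to 1.03) did not. A missed threshold does not show that smaller changes were absent.

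**Figure D1:**
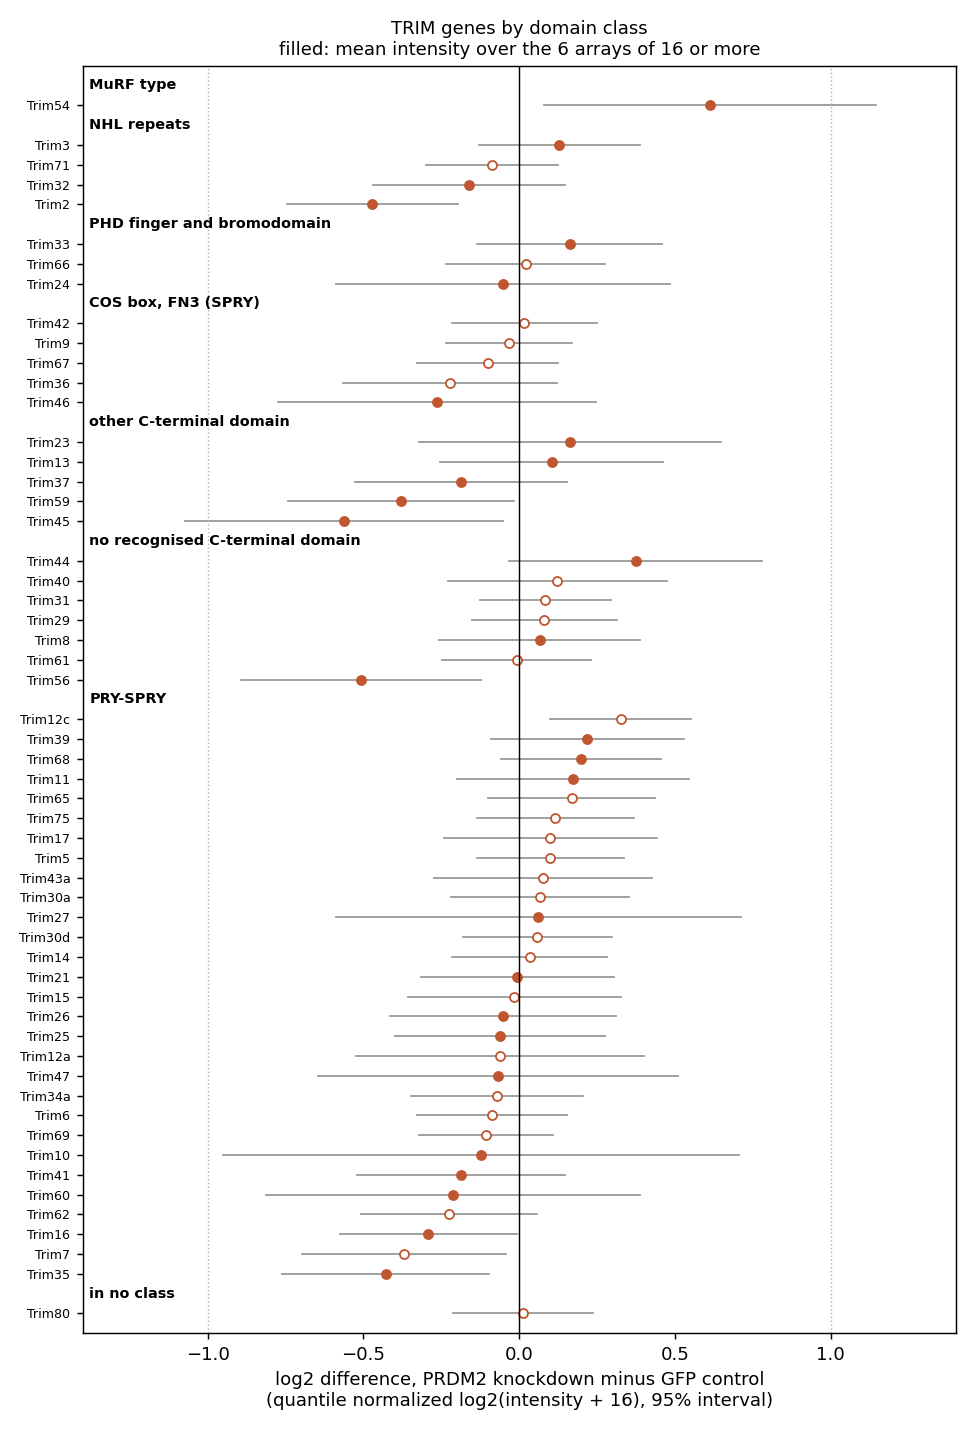
Log2 difference of each of the 55 TRIM genes (x axis, PRDM2 knockdown minus GFP control, on quantile normalized log2(intensity + 16)), grouped by the domain class of the protein, with points for the estimate and lines for the 95% interval from limma. Filled points are genes with a mean intensity of 16 or more, and dotted lines mark a 2-fold change; only the intervals of Trim54 and Trim45 cross one.

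**Figure D2:**
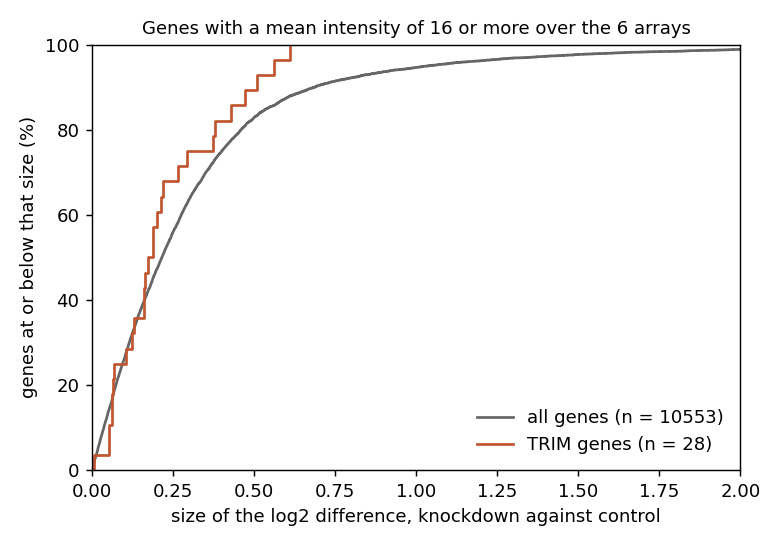
Cumulative share of genes (y axis, percent) by the size of their log2 difference (x axis, cropped at 2), for 28 TRIM genes and all 10553 genes with a mean intensity of 16 or more. The TRIM line ends at 0.61, and the line of all genes goes on beyond the right edge.

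In the knockdown and control arrays, quantile normalized, the values of 7 TRIM genes did not overlap, against 20.6% of all genes. Trim12c stood higher in the knockdown (background 11%), and Trim2, Trim56, Trim35, Trim7, Trim16 and Trim69 stood lower (background 9.5%). In the deposited intensities Trim16 and Trim35 do overlap. Conversely Trim54, Trim45 and Trim62 are apart in the deposited intensities and overlap once normalized. The share of 12.7% of the TRIM genes is below that of all genes and was not tested against it. Among the 28 brighter genes 4 did not overlap, all lower in the knockdown, where 24.8% of all brighter genes did not (13.6% higher and 11.2% lower). Of the 107 probe sets 11 did not overlap, 4 higher and 7 lower, against 18.0% of all probe sets (9.84% higher and 8.18% lower).

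The promoters shown here belong to Trim54, the TRIM gene of largest log2 difference with the offset of 16 (with an offset of 1 it is Trim12c, at 1.56), and to Trim12c with Trim5 and Trim30a, which lie close to each other in 1 run of TRIM genes. Each is the 250 bases before the start of transcription in RefSeq, 5' to 3' on the gene's strand, on the build GRCm38.p6, in lower case with motif matches in capitals. The motifs searched, on both strands, were CAGCTG, an E-box that myogenic factors bind, and the core of the interferon-stimulated response element, 2 runs of GAAA with any 2 bases between them. Windows were held for 44 of the 55 genes. Trim30a has 2 starts in that table, and the window shown is the one with a match, while the other, at chr7:104446126-104446375, holds neither motif.
Trim54, chr5:31116362-31116611, plus strand: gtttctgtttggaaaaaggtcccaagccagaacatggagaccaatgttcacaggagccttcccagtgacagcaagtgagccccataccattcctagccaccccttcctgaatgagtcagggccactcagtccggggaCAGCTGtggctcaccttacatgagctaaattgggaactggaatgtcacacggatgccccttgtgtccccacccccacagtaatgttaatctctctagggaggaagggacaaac
Trim12c, chr7:104353350-104353599, minus strand: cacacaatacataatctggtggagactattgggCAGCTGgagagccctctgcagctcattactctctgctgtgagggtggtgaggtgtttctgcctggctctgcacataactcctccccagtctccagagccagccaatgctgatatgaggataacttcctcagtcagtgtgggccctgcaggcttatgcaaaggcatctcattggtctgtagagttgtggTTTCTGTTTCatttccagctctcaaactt
Trim5, chr7:104288107-104288356, minus strand: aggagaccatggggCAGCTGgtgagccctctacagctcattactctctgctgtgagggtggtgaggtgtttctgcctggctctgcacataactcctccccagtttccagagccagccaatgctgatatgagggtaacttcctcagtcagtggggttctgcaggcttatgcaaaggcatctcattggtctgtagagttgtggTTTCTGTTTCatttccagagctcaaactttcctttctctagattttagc
Trim30a, chr7:104465194-104465443, minus strand: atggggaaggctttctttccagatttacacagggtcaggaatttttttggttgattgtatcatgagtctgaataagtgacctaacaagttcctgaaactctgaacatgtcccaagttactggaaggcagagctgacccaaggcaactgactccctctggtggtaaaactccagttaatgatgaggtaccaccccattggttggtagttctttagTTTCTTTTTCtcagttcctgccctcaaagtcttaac
The interferon core was found in 5 of the 58 windows of TRIM genes, those of Trim12c, Trim5, Trim30a, Trim30d and Trim26, and in 978 of 32851 windows of all genes (2.98%). The matched letters were the same in Trim12c and Trim5, and the same in Trim30a and Trim30d. CAGCTG was found in 16 of the 58 TRIM windows, of 13 genes, Trim54 and Trim12c among them, and in 4271 of all windows (13.0%). Trim60 and Trim61 share 1 window that was counted for each, and windows of Trim39 overlap. TRIM windows are thus not independent of each other, and neither motif count was tested against that of all windows. The interferon core and CAGCTG do not overlap in the windows printed. A match is a description of these letters and not a site of binding.

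Trim54 encodes MuRF3, a muscle ligase that binds microtubules and the sarcomere, and was the only MuRF gene among the 55. Trim55 had no probe set with a single symbol, and Trim63 had one but was left out by name. In array order, Trim54 read 21.9, 19.8 and 36.6 in the control and 53.4, 39.8 and 58.8 in the knockdown. The highest control value, on array 3, was just below the lowest knockdown value, on array 2. The means were 26.1 ± 9.16 and 50.6 ± 9.79 (SD, n = 3 each), and Trim54 differed by 0.61 in log2 (SE 0.224, 95% interval 0.079 to 1.14, limma adjusted p = 0.24). The difference was 0.75 over arrays 1 and 2 and 0.33 between the arrays 3. When the fit took in the Gapdh ratio of each array, Trim54 passed with a difference of 0.80 and a limma adjusted p of 0.0396. That ratio was far lower on control array 3 than on the others, so the covariate rests mostly on 1 array. Trim54 passed in 1 of 18 alternatives, and not when any array was left out. Over all alternatives the adjusted p was 0.0396 to 0.517. The myotube marker list moved in the same direction, and its part in this difference was not tested.

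Of the other ligases of muscle turnover, 1 of 11 rose, 0 fell and 10 did not pass, with a median of 0.083. Among all brighter genes, to which 10 of the 11 belong, 4.48% rose and 3.43% fell. The 1 of the 11 that rose was Trim63, which encodes MuRF1, a ligase of muscle atrophy and the nearest relative of Trim54 measured. Its intensity was 10.2, 13.1 and 3.07 on the control and 64.1, 58.5 and 38.2 on the knockdown arrays, with no overlap. Trim63 differed by 1.48 in log2 (SE 0.199, limma adjusted p = 0.00884), 1.48 over arrays 1 and 2 and 1.5 between the arrays 3, and whether it differs from that of Trim54 was not tested. Fbxo32, the F-box protein atrogin-1, differed by 1.51 with an adjusted p of 0.0508.

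Among the 4 genes with NHL repeats, Trim2 had the lowest adjusted p of the whole family. Trim2 is a ligase best known from neurons, where neurofilament light chain is a substrate. Its representing probe set read 110, 114 and 107 on the control arrays and 93.6, 75.7 and 73.4 on the knockdown arrays. Every knockdown array was lower than every control array, and the control arrays lay close together. The means were 110 ± 3.35 and 80.9 ± 11.1 (SD, n = 3 each), with a log2 difference of -0.47 (SE 0.115, limma adjusted p = 0.0775). The difference was -0.36 over arrays 1 and 2 and -0.70 between the arrays 3. That probe set is of the kind whose probes can also bind other transcripts. Of the other 3 bright ones, 1 with means of 96.8 ± 19.1 and 79.5 ± 2.19 differed by -0.31, and the rest, whose groups overlapped, by -0.15 and 0.12. With the mean of all 6 probe sets the gene differed by -0.12.

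Trim32, a ligase mutated in a limb-girdle muscular dystrophy, read 127, 107 and 116 in the control and 120, 112 and 97.8 in the knockdown. The groups overlapped, and the log2 difference was -0.16 (95% interval -0.47 to 0.15, limma adjusted p = 0.686). It was -0.0081 over arrays 1 and 2 and -0.46 between the arrays 3. Trim3, which is enriched in brain, differed by 0.13 (adjusted p = 0.702). Trim71, a stem cell protein that binds RNA, read 0.266 to 2.15 on the 6 arrays, and no direction can be read from values so far below the offset.

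The PHD finger and bromodomain class reads histone marks, and 0 of its 3 genes passed. Trim24, a coregulator of nuclear receptors that also targets p53, read 51.5, 33.4 and 59.0 in the control and 52.1, 50.7 and 39.7 in the knockdown. Its groups overlapped fully, with a log2 difference of -0.053 (95% interval -0.59 to 0.48, limma adjusted p = 0.963) whose sign turned with the scaling, to 0.025 by median centring, and with the arrays, from 0.23 over arrays 1 and 2 to -0.62 between the arrays 3. Trim33, which acts on Smad4 in TGF-beta signalling, read 141, 112 and 103 against 144, 156 and 131. The lowest values were on control arrays 2 and 3, and the difference was 0.16 (95% interval -0.14 to 0.46, limma adjusted p = 0.666). Over arrays 1 and 2 it was 0.21 and between the arrays 3 it was 0.059. A second bright probe set of Trim33 differed by 0.42 with an adjusted p of 0.63. Trim66 was dim, with means of 5.06 ± 2.12 and 5.16 ± 0.628.

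The 5 genes with another C-terminal domain were all among the brighter genes, and none passed. Trim45, whose protein carries a filamin-type domain, had only 1 probe set. Trim45 read 58.0, 37.4 and 60.1 in the control and 31.9, 25.9 and 35.5 in the knockdown. Control array 2 lay close to the knockdown values. The means were 51.8 ± 12.6 and 31.1 ± 4.86 (SD, n = 3 each), with a log2 difference of -0.56 (SE 0.215, 95% interval -1.07 to -0.051, limma adjusted p = 0.265). Trim45 differed by -0.46 over arrays 1 and 2 and -0.76 between the arrays 3. Without control array 2 it passed, at -0.79 with an adjusted p of 0.039, and over all alternatives the adjusted p was 0.039 to 0.535. Trim59, anchored in the endoplasmic reticulum membrane, read 123, 95.2 and 97.2 against 96.2, 85.5 and 66.2. Its groups overlapped by 1 array, and the difference was -0.38 (95% interval -0.74 to -0.017, limma adjusted p = 0.292), or -0.22 over arrays 1 and 2 and -0.70 between the arrays 3. Trim13, also anchored there, Trim37, a centrosome ligase, and Trim23, which carries an ARF domain, differed by 0.10, -0.19 and 0.16. For Trim37 the difference was 0.0058 over arrays 1 and 2 and -0.57 between the arrays 3, and for Trim23 it was -0.0059 and 0.50.

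Of the 7 genes without a recognised C-terminal domain 0 passed. Trim56, an antiviral ligase, read 56.0, 63.2 and 70.4 in the control and 50.9, 34.7 and 42.6 in the knockdown. Every knockdown array was below every control array. The means were 63.2 ± 7.22 and 42.7 ± 8.08 (SD, n = 3 each), with a log2 difference of -0.51 (SE 0.162, limma adjusted p = 0.173), or -0.38 over arrays 1 and 2 and -0.76 between the arrays 3. Trim44, which lacks a RING finger, read 212, 239 and 147 against 308, 215 and 314, so that the groups overlapped. It differed by 0.37 (95% interval -0.033 to 0.78, limma adjusted p = 0.37), or 0.17 over arrays 1 and 2 and 0.78 between the arrays 3. A dimmer probe set of Trim44 did not overlap, at 10.5 ± 1.74 and 19.3 ± 3.61, with a difference of 0.43 and an adjusted p of 0.119. Trim8, a regulator of cytokine signalling, differed by 0.066 (-0.068 over arrays 1 and 2, and 0.33 between the arrays 3), and Trim29, Trim31, Trim40 and Trim61 were dim.

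**Figure D3:**
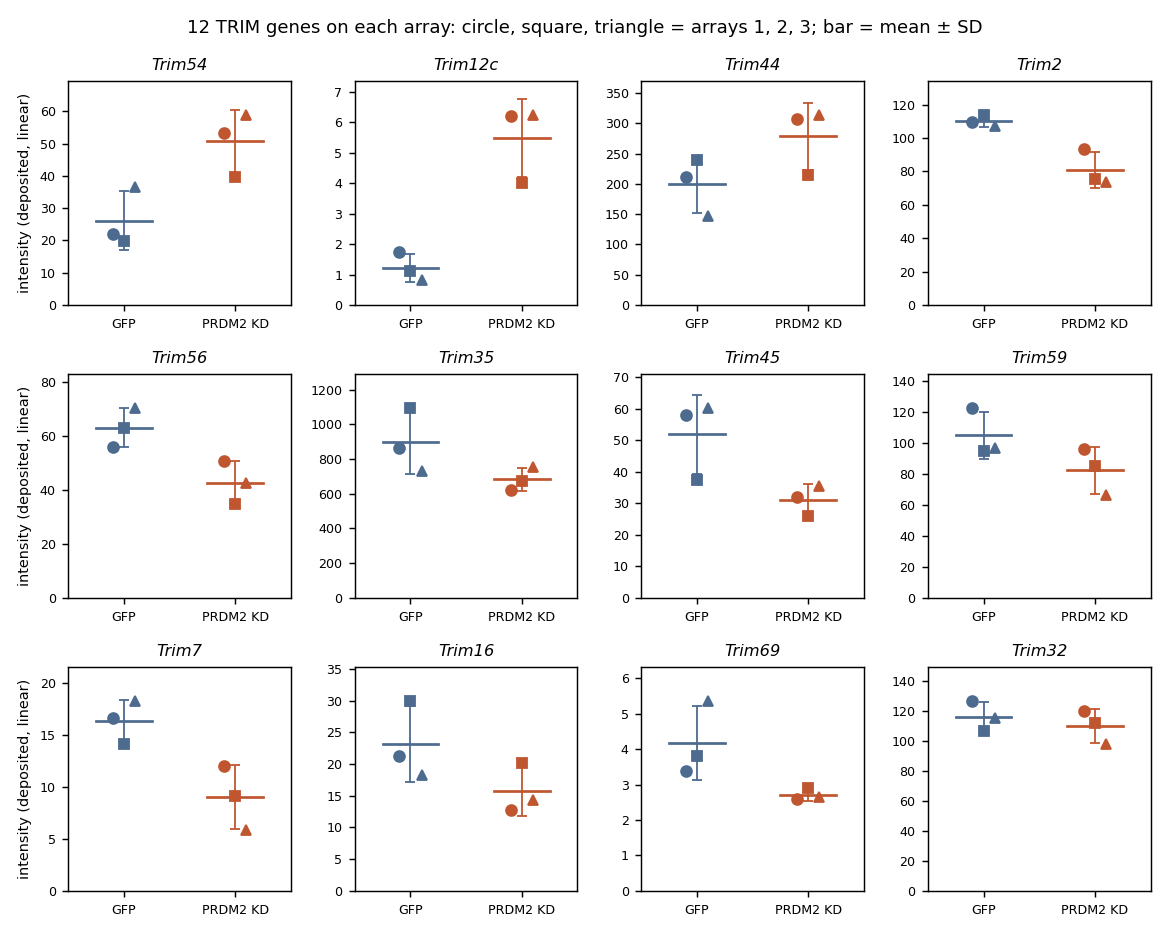
Deposited linear intensity (y axis, starting at 0, own scale per gene) of 12 TRIM genes in GFP control and PRDM2 knockdown cells, with circles, squares and triangles for arrays 1, 2 and 3, horizontal lines for means and error bars for SD (n = 3). On this scale Trim54, Trim12c, Trim2, Trim56, Trim45, Trim7 and Trim69 show no overlap between the groups, and the other 5 do; levels are not comparable between panels.

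The PRY-SPRY class is the largest, with 29 measured genes, 13 of them bright, and log2 differences from -0.43 to 0.33. Trim35 had the lowest value of the class. Its representing probe set read 864, 1093 and 728 in the control and 622, 674 and 752 in the knockdown. Knockdown array 3 lay above control array 3, and the groups were apart only after normalization. The means were 895 ± 184 and 683 ± 65.0 (SD, n = 3 each), with a log2 difference of -0.43 (SE 0.14, limma adjusted p = 0.182), or -0.56 over arrays 1 and 2 and -0.16 between the arrays 3. A second probe set of Trim35 differed by -0.55 (adjusted p = 0.247) and the last one by 0.032.

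Trim7, which binds glycogenin, read 16.6, 14.1 and 18.2 against 12, 9.16 and 5.89. No arrays overlapped, and Trim7 differed by -0.37 in log2 (SE 0.138, limma adjusted p = 0.249), although its other 2 probe sets, both dimmer, differed by 0.0062 and -0.054. Over arrays 1 and 2 Trim7 differed by -0.20 and between the arrays 3 by -0.71. Trim16, which lacks a RING finger and acts in the autophagy of damaged lysosomes, read 21.3, 29.9 and 18.3 against 12.8, 20.2 and 14.3. It differed by -0.29 (95% interval -0.58 to -0.0080, limma adjusted p = 0.302), or -0.32 over arrays 1 and 2 and -0.24 between the arrays 3. Trim69 differed by -0.11 at intensities of 2.59 to 5.36, far below the offset.

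Trim12c depended most on the handling of dim values. It read 1.74, 1.11 and 0.827 in the control and 6.22, 4.01 and 6.24 in the knockdown, so that each knockdown array was above each control array, all of them far below the offset of 16. The means were 1.22 ± 0.466 and 5.49 ± 1.28 (SD, n = 3 each), and Trim12c differed by 0.33 in log2 (SE 0.0945, limma adjusted p = 0.132). With an offset of 1 it became 1.56 and passed (adjusted p = 0.0104), and it also passed with an intensity trend in the variance (adjusted p = 0.0224). The difference was 0.29 over arrays 1 and 2 and 0.40 between the arrays 3. A second probe set of Trim12c, at 0.288 to 2.33 on all arrays, differed by 0.018. Trim12a and Trim12c are related genes of the same run, and whether their probe sets share signal was not tested.

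Trim12c is 1 of 10 TRIM genes that follow each other with at most 1 other protein-coding gene between them, in the gene order of GRCm38.p6. Of the 7 with a probe set of their own, Trim6, Trim34a, Trim5, Trim12a, Trim12c, Trim30a and Trim30d, none was among the brighter genes, with windows that hold the interferon core in 4 of them. In all 5 such runs 5 of 19 genes were bright, against 23 of 36 TRIM genes outside a run. Trim30a, which restrains Toll-like receptor signalling, read 3.73, 1.43 and 4.68 against 6.42, 3.16 and 2.72. Its groups overlapped, and the log2 difference was 0.066 (95% interval -0.22 to 0.35), or 0.17 over arrays 1 and 2 and -0.14 between the arrays 3.

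Members known for antiviral or interferon-induced roles numbered 11 measured of 15 listed, and 0 passed, with a median of -0.0060. Of the 11, 4 were among the brighter genes, and the differences of the dim ones are understated by the added 16. Trim25, which ubiquitinates the RNA sensor RIG-I, read 80.7, 80.5 and 65.7 against 95.8, 60.6 and 77.4. Both the highest and the lowest value were on knockdown arrays, and the difference was -0.060 (95% interval -0.40 to 0.28, limma adjusted p = 0.922), which turned to 0.042 with median centring and was -0.075 over arrays 1 and 2 and -0.032 between the arrays 3. Trim21, a cytosolic antibody receptor, read 16.1, 14.0 and 18.6 against 19.4, 14.4 and 14.5, and differed by -0.0060 (95% interval -0.32 to 0.30), or 0.011 with median centring. It was 0.11 over arrays 1 and 2 and -0.25 between the arrays 3.

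Genes around these ligases were looked at in the same fit. Of 25 measured interferon-stimulated genes 0 passed, with a median of -0.032 and the 2 largest differences at 0.46 for Irf1, an interferon-regulated transcription factor, and -0.30 for Ddx58, which encodes RIG-I. Of 12 genes of antiviral signalling 0 passed, and the adaptor gene Ticam1 and the NF-kB subunit gene Rela differed by -0.65 and -0.55. The median of these genes was -0.12, with 3 of them above 0 and 9 below. Among all brighter genes 4.48% rose and 3.43% fell. Of 14 genes for E2 enzymes and their variants, the partners of the RING finger, 1 fell, 0 rose and 13 did not pass. The one that fell was Ube2e2, at 193, 207 and 215 in the control and 140, 90.8 and 103 in the knockdown, with a log2 difference of -0.91 (SE 0.168, limma adjusted p = 0.0289), or -0.76 over arrays 1 and 2 and -1.23 between the arrays 3. Without passing, the groups of Ube2n, Ube2v2 and Ube2e1 also did not overlap, with higher values in the knockdown and log2 differences of 0.81, 0.52 and 0.36, and neither did those of Ube2e3, at -0.21. With Ube2e2, 3 of the 14 were thus apart upward and 2 downward. All 14 were among the brighter genes, of which 13.6% were apart upward and 11.2% downward, and the shares were not tested against each other. Ube2n differed by 0.32 over arrays 1 and 2 and by 1.78 between the arrays 3. Of 7 genes for tripartite proteins with other names 0 passed, with Pml, the organiser of nuclear bodies, at 0.41 and Mid1, a microtubule-bound ligase, at 0.22.

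The remaining classes gave no called gene either. The COS box class with fibronectin repeats held 5 genes from -0.26 to 0.016, of which Trim46, known from the axon, was the only bright one. It read 81.4, 90.6 and 102 in the control and 57.9, 78.2 and 106 in the knockdown, with the highest and the lowest value both in the knockdown, and differed by -0.30 over arrays 1 and 2 and -0.20 between the arrays 3. Trim80, which was placed in no class, differed by 0.013.

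Of the 55 genes 30 had more than 1 probe set, and in 14 of these the probe sets differed in sign. No probe set of any of them passed. The widest spreads among bright probe sets were those of Trim2, from -0.47 to 0.12, and of Trim35, from -0.55 to 0.032. Trim25 had bright probe sets at -0.060, -0.046 and 0.33, and for Trim41 both were close, at -0.19 and -0.20.

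**Figure D4:**
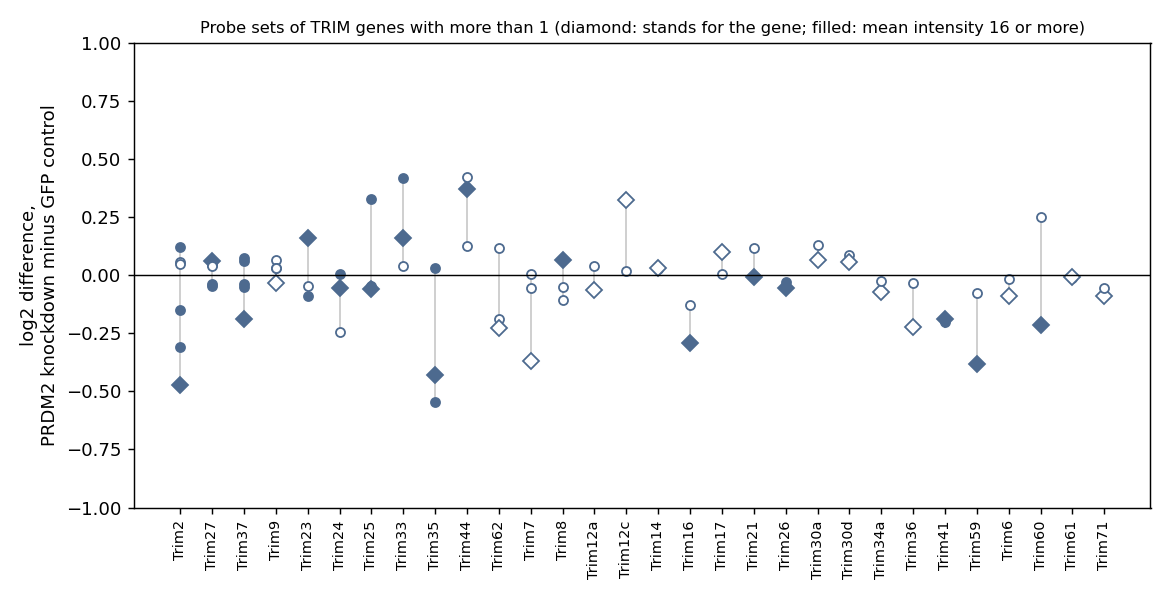
Log2 difference (y axis, knockdown minus control) of every probe set of the 30 TRIM genes with more than 1, with a diamond for the probe set that stands for the gene and filled symbols for a mean intensity of 16 or more. Probe sets of 1 gene lie on both sides of 0 for 14 genes, and none lies beyond 0.55 in size.

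Markers of other cell types were checked because many TRIM genes are abundant in leukocytes. Of 9 leukocyte markers 0 passed, and their summed intensity was 489 to 565 on the control and 313 to 378 on the knockdown arrays. The largest differences were -0.82 for Csf1r and -0.69 for Cd14, while Ptprc, which defines leukocytes, read 1.09 ± 0.554 and 1.82 ± 0.961. Of 6 endothelial markers 0 passed, with sums of 51.3 to 97.3 and 47.6 to 73.6 and differences of -0.30 for Emcn and -0.18 for Vwf. Of 5 adipocyte markers 0 passed, with sums of 89.8 to 109 and 76.3 to 87.9 and differences of -0.38 for Pparg and 0.16 for Fabp4. Of 7 fibroblast markers Col1a1 rose, by 0.98 (limma adjusted p = 0.0287), and the sums were 4789 to 7643 and 6461 to 6800. Among all genes 2.96% rose. The summed leukocyte markers and the summed adipocyte markers were each lower on every knockdown array than on any control array. Most of the adipocyte sum was Pparg, the only 1 of the 5 among the brighter genes. Pparg read 72.9 to 84.4 on the control and 58.6 to 63.2 on the knockdown arrays. Of the 5 adipocyte markers 2 differed by more than 0 and 3 by less, with a median of -0.014. Most of the leukocyte sum was Cd14, which read 302 to 383 on the control and 207 to 226 on the knockdown arrays. Of the 9 leukocyte markers 5 differed by more than 0 and 4 by less, with a median of 0.026. The part of these markers in the differences of the TRIM genes was not tested.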

How the data were processed

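Gene expression was measured in 6 samples, 3 per group. The deposited values are 1 linear intensity per probe set and array. The submitters' processing notes name GCOS and PLIER, without versions, and the background correction and scaling they ran are steps not given in these sources. Columns of other samples numbered 0. In R 4.3.3 with limma 3.58.1, 64 control probe sets were left out, log2(intensity + 16) was quantile normalized, and symbols came from the platform annotation. All 55 TRIM genes matched the GRCm38.p6 gene table. A gene was represented by its probe set of highest mean over the 6 arrays. The 2 groups were tested with lmFit and eBayes over all genes and over all probe sets, with Benjamini-Hochberg adjustment and a threshold of 0.05. The test was tried on simulated data. Means ± SD are of deposited intensities, and differences and overlap counts are of normalized values. The number of arrays limits the precision.

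The named genes are the TRIM genes that pass, of those whose arrays do not overlap up to 10 of largest difference, Trim32, Trim54, Trim55, Trim24, Trim33, Trim21, Trim25 and Trim30a whatever their values, and from each other list up to 4 passing genes or the 2 largest differences, and Prdm2. The TRIM genes and lists were chosen with earlier results of these data known. Trim44, Trim45, Trim59, Fbxo32, Ube2n, Ube2v2, Ube2e1, Ube2e3 and other TRIM genes given with values were chosen after their values were seen. Same-numbered arrays correlated at 0.342, 0.00746 and 0.116 in their deviations from the group means, and differently numbered arrays at -0.389 to 0.163. Since deviations within a group sum to 0, these values cannot settle whether the numbers pair the arrays. The main test took the arrays as unpaired, and a replicate block was an alternative. Alternatives covered the offset, the scaling, the probe set, the model of the variance, a minimum intensity, a replicate block, the spike signal, RNA quality and leaving out each array.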

Additional observations from a re-analysis of the deposited data

How the results depend on the processing

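Of 18 alternatives, leaving out an array in turn included, those below gave a call of a TRIM gene. With an offset of 1, and with an intensity trend, 1 TRIM gene (Trim12c) and 1 TRIM probe set were higher, and with the Gapdh ratio as a covariate 1 TRIM gene (Trim54) was higher. Leaving out each array gave 0 to 1 TRIM genes lower (Trim45). Over all genes ordinary statistics gave 141 higher and 70 lower against 539 and 399, the 4 arrays of higher spike signal 210 and 149, and leaving out each array 241 to 423 higher and 195 to 394 lower, with the lowest of both without knockdown array 1. With the replicate block 409 were higher and 303 lower, and 0 TRIM genes passed. Of 17 named TRIM genes, 13 kept their direction in every alternative that gave them a value; Trim12c, Trim7, Trim69 and Trim30a had none with the filter on low values. The other four, all with differences under 0.1 in size, changed sign and were never called. Trim24, Trim21 and Trim25 gave 0.025, 0.011 and 0.042 with median centring, and Trim24 and Trim25 0.0066 and 0.023 with the deposited values. Trim24 and Trim21 gave 0.23 and 0.11 on the 4 arrays of higher spike signal and 0.12 and 0.074 with the Gapdh ratio, and Trim21 and Trim25 0.055 and 0.074 with the mean of probe sets. Leaving out each array gave -0.29 to 0.15 for Trim24, -0.090 to 0.083 for Trim21, -0.18 to 0.070 for Trim25 and -0.019 to 0.12 for Trim30a. The causes were not tested. Signal near background limits the 27 TRIM genes under a mean intensity of 16.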
